A study of Mus musculus with 5 samples.

Results

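Sox transcription factors of skeletal progenitors were measured in marrow stromal cells that descend from fetal perichondrial cells or from fetal chondrocytes. The genes *Sox4*, *Sox5*, *Sox6*, *Sox8*, *Sox9*, *Sox11* and *Sox12* were taken by name from the 30046 features of the counts, and all 7 were listed there. The chondrogenic trio of *Sox5*, *Sox6* and *Sox9* was read against the other 4 genes, namely the SoxC genes *Sox4*, *Sox11* and *Sox12* and the SoxE gene *Sox8*.

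RNA-seq was done in bulk on cells that were bright for Cxcl12-GFP and positive for tdTomato, isolated by FACS from mouse femurs on postnatal day 21, after tamoxifen on embryonic day 12.5, and gave 5 libraries. The Dlx5 libraries, replicates 1 to 3, came from mice with the alleles Dlx5(CreER/+), Cxcl12(GFP/+) and R26R(tdTomato/+). The Fgfr3 libraries, replicates 2 and 3, came from mice with the transgene Fgfr3-iCreER and the alleles Cxcl12(GFP/+) and R26R(tdTomato/+). All mice carried 1 GFP allele at *Cxcl12* and 1 tdTomato reporter allele. In the Dlx5 mice, CreER was active in the fetal perichondrium, the layer around the cartilage template, and in the Fgfr3 mice iCreER was a transgene active in fetal chondrocytes. tdTomato marks all later descendants of the cells labelled at the pulse, whatever they have become. Littermates of 1 genotype were pooled before sorting, and the distal growth plates were removed before the bones were digested. The p-values measure the spread between these pools only.

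Total counts ranged from 22035650 to 32563758 in the Dlx5 libraries and from 56355203 to 58166285 in the Fgfr3 libraries. The driver sequences went with the labels, since the sequence listed as cre had 416 to 467 counts in the Dlx5 libraries and 1 count in each Fgfr3 library, and that listed as iCre.ERT2 had 451 to 521 counts in the former and 4802 and 3762 in the latter. The sequencer and the read length cannot be told apart from the lineage, because the study's methods give 150-base paired reads for the Dlx5 libraries and 50-base single reads for the Fgfr3 libraries, whereas the labels name one sequencer for all. Markers of Cxcl12-abundant reticular (CAR) stromal cells were present in all 5 libraries, and *Cxcl12* itself had a mean of 22133 ± 637 CPM (the share of a library's counts scaled by edgeR's TMM, SD, n = 3) in the Dlx5 libraries and values of 8003 and 5747 CPM in the Fgfr3 libraries. The sorted cells also held RNA of blood cells in every library, given below beside the genes that moved with it. In a bulk sample, fewer cells of a type and less RNA per cell cannot be told apart.

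Sox proteins bind DNA through the HMG box, a domain that sits in the minor groove and bends the helix. *Sox9* is required for cartilage formation, and *Sox5* and *Sox6*, which lack an activation domain of their own, act with it on the enhancers of cartilage matrix genes such as *Col2a1* and *Acan*. The SoxC factors act as activators in immature mesenchymal and neural cells, and *Sox8* is the closest relative of *Sox9* among these genes.

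The family resemblance is shown by 60 coding bases inside the HMG box, which also bears on how short reads can be placed. They start at the same point of the box in each gene, and capitals mark each base that differs from *Sox9*.
Sox9: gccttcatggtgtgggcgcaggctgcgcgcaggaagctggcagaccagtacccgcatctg
Sox8: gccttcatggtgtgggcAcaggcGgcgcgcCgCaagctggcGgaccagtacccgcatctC
Sox5: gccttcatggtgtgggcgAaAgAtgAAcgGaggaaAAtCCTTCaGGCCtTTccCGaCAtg
Sox6: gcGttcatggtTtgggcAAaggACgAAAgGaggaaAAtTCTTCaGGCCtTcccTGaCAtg
Sox4: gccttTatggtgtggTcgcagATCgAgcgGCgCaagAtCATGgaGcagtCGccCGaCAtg
Sox11: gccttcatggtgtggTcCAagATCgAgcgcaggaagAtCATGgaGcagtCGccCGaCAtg
Sox12: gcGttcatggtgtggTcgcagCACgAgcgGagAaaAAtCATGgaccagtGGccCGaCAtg
In this window, counted from the first coding base, *Sox9* runs from 331 to 390 and *Sox8* shares 54 of its 60 bases. The 5 other genes share between 34 bases (*Sox6*) and 41 bases (*Sox11*) with *Sox9*. Within the groups, *Sox4* and *Sox11* share 54 bases, *Sox4* and *Sox12* share 51, and *Sox5* and *Sox6* share 51. Over whole coding sequences of GENCODE M21, the longest run that any pair of members has in common is the 48 bases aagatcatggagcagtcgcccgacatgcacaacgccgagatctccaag of *Sox4* (coding bases 226 to 273) and *Sox11* (196 to 243). That run is shorter than the 50-base reads, so no read of full length fits inside coding sequence that 2 of the genes share.

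The genes differed widely in level. Levels are compared between genes as TMM-scaled CPM per kilobase of the gene's merged exons, where TMM is edgeR's scaling for composition. In the Dlx5 libraries (mean ± SD, n = 3), *Sox4* stood at 46.9 ± 8.26 CPM per kilobase and *Sox9* at 29.4 ± 0.997. Both were far above *Sox6* at 1.23 ± 0.0718, *Sox12* at 0.688 ± 0.227, *Sox8* at 0.390 ± 0.0929, *Sox5* at 0.129 ± 0.0517 and *Sox11* at 0.0401 ± 0.0374. The libraries of neighbours in this order did not overlap, save those of *Sox12* and *Sox8* and those of *Sox5* and *Sox11*. In the Fgfr3 libraries (mean ± SD, n = 2) the order was *Sox4* at 81.2 ± 13.2, *Sox9* at 18.0 ± 7.32, *Sox12* at 3.82 ± 0.424, *Sox6* at 0.698 ± 0.0217, *Sox8* at 0.320 ± 0.0649, *Sox5* at 0.0850 ± 0.0479 and *Sox11* at 0.0155 ± 0.0219. *Sox12* and *Sox6* thus stood in the opposite order in the lineages, and neighbours in the Fgfr3 order did not overlap. Taking the longest transcript in place of the merged exons put *Sox6* at 2.11 in the Dlx5 and 1.19 in the Fgfr3 libraries and left the order of the genes as it was.

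**Figure D1:**
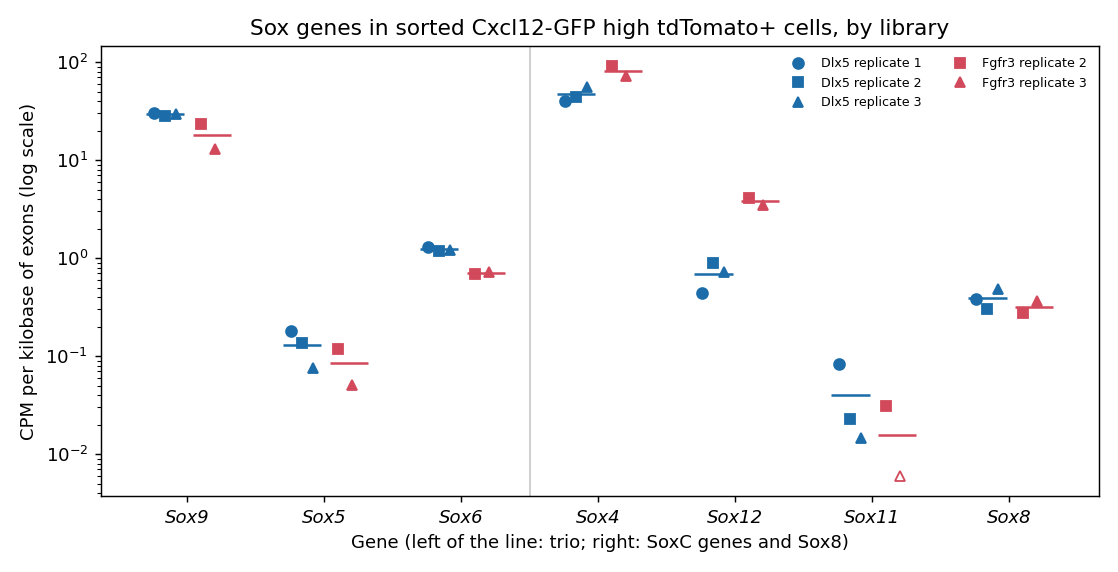
Level of each Sox gene in each library, as TMM-scaled CPM per kilobase of exons on a log axis, with horizontal bars for the group means. Blue marks the 3 Dlx5 libraries and red the 2 Fgfr3 libraries, and the open symbol at the foot of the axis is Sox11 in Fgfr3 replicate 3, which had 0 counts. Sox12 lies between 0.443 and 0.892 in the Dlx5 libraries and at 3.52 and 4.12 in the Fgfr3 libraries.

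Against this background of levels, only *Sox12* passed the test between the lineages, and it was higher in the Fgfr3 libraries. A gene was called where edgeR's quasi-likelihood test gave a Benjamini-Hochberg adjusted p under 0.05 and the fold change exceeded 2. Of the 7 genes, 6 passed the filter on low counts (at least 1 CPM in at least 2 libraries), and *Sox11* did not. Among the 13235 genes tested, 2200 (16.6%) were called higher in the Fgfr3 libraries and 1706 (12.9%) higher in the Dlx5 libraries. One of 6 Sox genes was called higher in the Fgfr3 libraries and 0 of 6 higher in the Dlx5 libraries, also with edgeR's exact test and with DESeq2. The 56.3% of all calls that were higher in the Fgfr3 libraries became 67.7% when libraries were scaled by their totals alone and 43.1% when all features were tested. By the adjusted p alone, with no demand on the fold, 22.7% of all genes were higher in the Fgfr3 libraries and 20.8% higher in the Dlx5 libraries. On that reading *Sox4* joined *Sox12* on the Fgfr3 side and *Sox6* stood on the Dlx5 side.

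The trio lay below 0 and the other tested genes, except *Sox8*, above it. All 3 trio genes had a negative log2 fold change (Fgfr3 over Dlx5) with a median of -0.71, and the 3 tested genes outside the trio had a median of 0.79. The median over all genes tested was 0.01. None of the trio was called, by the quasi-likelihood test, the exact test or DESeq2, and 2 of the 3 had an unadjusted p under 0.05. In 33.6% of all genes tested both Fgfr3 libraries stood above all Dlx5 libraries, and in 32.9% both stood below. Of the 6 Sox genes, 2 (*Sox4* and *Sox12*) stood wholly above and 2 (*Sox6* and *Sox9*) wholly below.

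**Figure D2:**
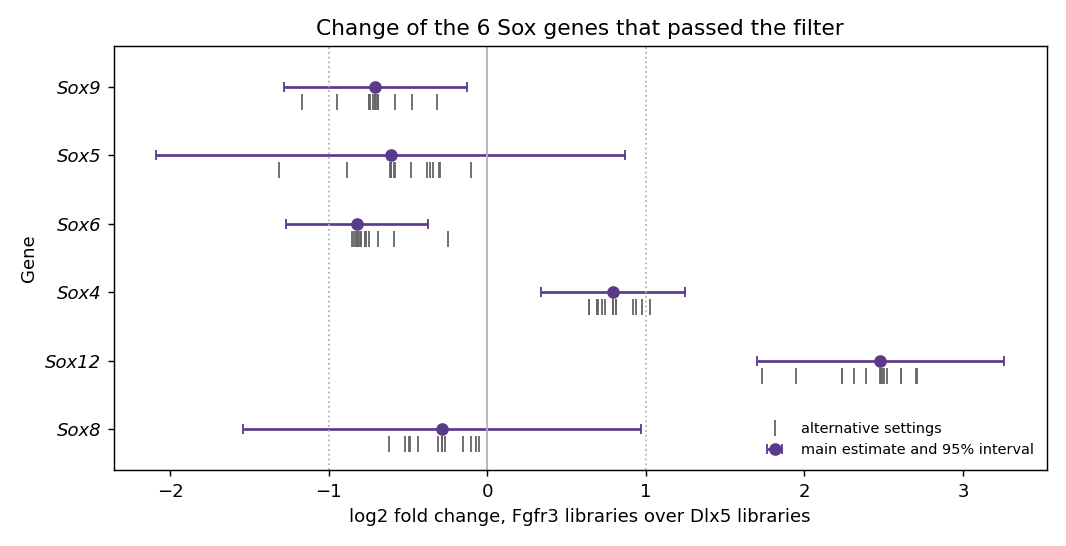
Log2 fold change of each tested Sox gene, Fgfr3 libraries over Dlx5 libraries, with its 95% interval from the quasi-likelihood fit (purple) and the estimates under the alternative settings (grey ticks). Dotted lines mark the 2-fold threshold in either direction. The interval of Sox12 runs from 1.70 to 3.26, and those of Sox5 and Sox8 include 0.

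*Sox9*, which directs mesenchymal cells into the cartilage lineage and is needed to keep chondrocytes in that state, was well measured in both lineages. It had 125, 117 and 123 CPM in Dlx5 replicates 1 to 3, and 96.0 and 53.2 CPM in Fgfr3 replicates 2 and 3. Both Fgfr3 libraries lay below all Dlx5 libraries, and they differed from each other by 1.80 times. The log2 fold change was -0.71 ± 0.24 (SE), with a 95% interval from -1.28 to -0.13. That interval is not adjusted for the number of genes, and *Sox9* did not pass edgeR's quasi-likelihood test, at an adjusted p of 0.0524. The estimate depended on which Fgfr3 library was kept. Without Fgfr3 replicate 2 it was -1.17 and called (edgeR's quasi-likelihood adjusted p = 0.00195), and without Fgfr3 replicate 3 it was -0.32 (adjusted p = 0.124). In each of these fits the lone Fgfr3 library was assumed to vary like the others. *Sox9* (ENSMUSG00000000567) lies on the forward strand of chromosome 11 of GRCm38, from 112782224 to 112787760, with 3 exons.

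*Sox6*, an SoxD partner of *Sox9* in cartilage that also acts in red cell precursors, was even within each lineage. It had 19.5, 17.4 and 17.9 CPM in the Dlx5 libraries and 10.1 and 10.6 CPM in the Fgfr3 libraries, so that the groups stood apart. The log2 fold change was -0.82 ± 0.19 (SE), a level 1.77 times as high in the Dlx5 libraries, with an edgeR quasi-likelihood adjusted p of 0.0123. This passed the threshold on p and not that on the fold. After removal of a trend on transcript length from each library, the difference was -0.25 with an adjusted p of 0.362. *Sox6* has the longest merged exons of the 7 genes, 14832 bases over 16 transcripts within chr7:115470872-116038796 on the reverse strand.

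*Sox5*, the other SoxD partner, was near the filter. It had 78, 41 and 27 counts in the Dlx5 libraries (2.56, 1.94 and 1.08 CPM) and 106 and 47 counts in the Fgfr3 libraries (1.71 and 0.734 CPM). The groups overlapped. The log2 fold change of -0.61 ± 0.63 (SE) had a 95% interval from -2.09 to 0.87, which holds both no change and a level more than 2-fold lower in the Fgfr3 libraries. Of its 50-base windows, 8.98% also occur in transcripts of other genes, antisense *Sox5os1* among them. The share of its reads that fall in those windows is not known.

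The SoxC activator *Sox12* showed the one called difference among the 7 genes. It had 60, 84 and 81 counts in the Dlx5 libraries and 1137 and 1002 counts in the Fgfr3 libraries. As CPM these were 1.97, 3.97 and 3.24 against 18.3 and 15.7, with every Fgfr3 library far above every Dlx5 library. The fitted level was 5.58 times as high in the Fgfr3 libraries, a log2 fold change of 2.48 ± 0.33 (SE) with an edgeR quasi-likelihood adjusted p of 0.00132. The call was kept in all 17 alternative fits, in which the log2 fold change ranged from 1.73 to 2.71. *Sox12* (ENSMUSG00000051817) has the highest GC content of the 7 genes, 59.9% of its exons, and over the fifth of all tested genes with the highest GC content the median log2 fold change was 0.23. With a trend on GC content removed from each library, *Sox12* stood at 1.95 (edgeR's quasi-likelihood adjusted p = 0.00276). None of its 50-base windows occurs in another gene.

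*Sox4*, the most abundant of the 7 genes, is an activator found in many progenitors, those of the osteoblast and B cell lineages included. It had 194, 211 and 269 CPM in the Dlx5 libraries and 434 and 344 CPM in the Fgfr3 libraries, without overlap. The level was 1.73 times as high in the Fgfr3 libraries, a log2 fold change of 0.79 ± 0.19 (SE) with an edgeR quasi-likelihood adjusted p of 0.0144, under the fold threshold. With libraries scaled by their totals alone it was 1.02 and called (adjusted p = 0.00416), but that scaling moved the median of all genes to 0.24, and relative to it *Sox4* stood at 0.78. With 1 library left out at a time, the adjusted p rose above 0.05 without Dlx5 replicate 2, at 0.0637, and without Fgfr3 replicate 2, at 0.0515. Exons of the antisense lincRNA *Gm26735* cover 2616 of the 4795 bases of *Sox4* (chr13:28948919-28953713), and this lincRNA has no row in the counts. Since the library kit does not mark strand, reads of the 2 genes cannot be told apart there.

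*Sox11*, the third SoxC gene, was close to absent. It had 21, 4 and 3 counts in the Dlx5 libraries and 16 and 0 counts in the Fgfr3 libraries. Dlx5 replicate 1 and Fgfr3 replicate 2 carried most of its counts. The gene failed the filter, and in the alternative with no filter it was not called (log2 fold change -1.35, edgeR's quasi-likelihood adjusted p = 0.587). A difference was not detectable at this depth, where 3 counts amount to between 0.0516 and 0.136 CPM of a library's total. The SoxC genes therefore took 3 different positions, with *Sox4* between 194 and 434 CPM, *Sox12* between 1.97 and 18.3 CPM and *Sox11* between 0 and 0.690 CPM.

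The SoxE gene *Sox8*, which can stand in for *Sox9* in some tissues, had 36, 20 and 38 counts in the Dlx5 libraries and 53 and 73 counts in the Fgfr3 libraries. As CPM these were 1.18, 0.946 and 1.52 against 0.854 and 1.14, and the groups overlapped. The log2 fold change was -0.29 ± 0.53 (SE), with a 95% interval from -1.54 to 0.97. *Sox8* shares 329 exon bases with the antisense gene *2810468N07Rik*, which had 17 to 52 counts per library, as many as *Sox8* in some.

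The balance between members was also compared within each library, where scaling between libraries plays no part. Per kilobase, *Sox4* was 1.34, 1.55 and 1.89 times as high as *Sox9* in the Dlx5 libraries and 3.90 and 5.58 times as high in the Fgfr3 libraries. *Sox12* was 0.0147 to 0.0315 times as high as *Sox9* in the Dlx5 libraries, and 0.177 and 0.273 times in the Fgfr3 libraries. Both ratios stood apart between the lineages. The ratio of *Sox9* to *Sox6*, at 23.0 to 24.7 in the Dlx5 libraries, was 34.0 and 18.0 in the Fgfr3 libraries and so lay on both sides. With 3 libraries against 2, a two-sided exact permutation test of such a ratio cannot go below p = 0.2, which it gave for both.

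For the genes with an adjusted p under 0.05 on the Fgfr3 side, the bases upstream of the start are given, with RefSeq's sequence on GRCm38.p6 and cut where the GENCODE gene begins. Of the 7 genes, 6 had an entry in that table. Motifs were searched on both strands in the 250 bases before each RefSeq start, and capitals mark CCAAT or its reverse ATTGG, the octamer ATGCAAAT, and GGGCGG or its reverse CCGCCC, of which a pair overlaps in *Sox12*.
Sox12 (chr2:152398064-152398296, reverse strand): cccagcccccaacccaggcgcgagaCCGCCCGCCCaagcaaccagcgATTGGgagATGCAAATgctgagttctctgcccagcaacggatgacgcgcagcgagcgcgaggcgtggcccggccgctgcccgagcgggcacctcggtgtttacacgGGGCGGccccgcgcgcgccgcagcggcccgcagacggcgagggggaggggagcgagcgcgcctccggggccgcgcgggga
Sox4 (chr13:28953714-28953949, reverse strand): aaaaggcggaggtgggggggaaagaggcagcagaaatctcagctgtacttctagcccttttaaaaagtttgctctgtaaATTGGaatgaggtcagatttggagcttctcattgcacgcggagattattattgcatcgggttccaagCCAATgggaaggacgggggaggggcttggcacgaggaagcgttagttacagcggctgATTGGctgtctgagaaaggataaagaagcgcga
The window of *Sox12* was 74.4% GC, against a median of 52.4% over 32851 windows, and that of *Sox4* was 50.8% GC. A CCAAT box was found in both and in 33.8% of all windows. GGGCGG was found in *Sox12* and in 32.7% of all windows, and the octamer in *Sox12* and in 1.60%. The motifs bound by Sox proteins, searched as ACAAAG and AACAAT, were in neither window and in 16.5% and 9.42% of all windows.

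Some of the genes that the trio drives in cartilage stood in contrast to the trio itself. Of a list of 21 such genes, 18 were tested and 12 were called higher in the Fgfr3 libraries (median log2 fold change 4.94). The quasi-likelihood test, the exact test and DESeq2 called 0 higher in the Dlx5 libraries. On that side *Col27a1* alone had an unadjusted quasi-likelihood p under 0.05. Of the 18, 8 passed the filter only through the Fgfr3 libraries, so the filter itself fixed their direction. All 8 are among the 12 called, and they raise the median. *Col2a1*, *Col9a2*, *Col11a2* and *Comp* were the called genes that also reached the filter level in Dlx5 libraries. Over all genes tested, 16.6% were called higher in the Fgfr3 libraries. Per library, *Col2a1*, the main collagen of cartilage, had 7.06, 3.17 and 0.761 CPM in the Dlx5 libraries against 2577 and 339 in the Fgfr3 libraries. Set against *Sox9* in the same library, there were 0.00617 to 0.0565 counts of *Col2a1* per count of *Sox9* in the Dlx5 libraries, and 26.8 and 6.38 in the Fgfr3 libraries. *Col11a2*, a fibril collagen, was nearly even in the Fgfr3 libraries, with 3101 and 2651 counts, against 26 to 115 counts in the Dlx5 libraries.

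Other genes of the list were hardly seen in the Dlx5 libraries. *Cnmd*, which encodes chondromodulin, had 0 to 2 counts there, against 98.5 and 8.99 CPM in Fgfr3 replicates 2 and 3. It was at least 447-fold higher over both Fgfr3 libraries and at least 74.8-fold higher in replicate 3 alone. *Acan*, the core protein of the large cartilage proteoglycan, also had 0 to 2 counts, against 2738 and 94, and was at least 190-fold higher over both and at least 12.2-fold higher in replicate 3 alone. *Col9a1* and *Matn1* had 0 counts in all Dlx5 libraries and were at least 147-fold and 109-fold higher over both Fgfr3 libraries, and at least 27.8-fold and 11.1-fold higher in replicate 3 alone. These bounds rest on a floor of 3 counts in each Dlx5 library. Not every gene of the list differed, since *Col11a1* had 46.1 to 55.6 CPM in the Dlx5 libraries and 66.1 and 34.7 CPM in the Fgfr3 libraries. *Fgfr3* itself had 85.1 ± 12.1 CPM (SD, n = 3) in the Dlx5 libraries and 148 and 121 CPM in the Fgfr3 libraries, a log2 fold change of 0.66 ± 0.17 (SE). In 20 of the 21, Fgfr3 replicate 2 stood above replicate 3. The 8 genes that passed the filter only through the Fgfr3 libraries could not be tested with 1 of these left out. Of the 10 genes still tested, 3 were called without replicate 2 and 5 without replicate 3. *Col2a1*, *Col11a2* and *Col9a2* were the 3 called without replicate 2, while *Comp* was then not called, at a log2 fold change of 0.61 (edgeR's quasi-likelihood adjusted p = 0.380).

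**Figure D3:**
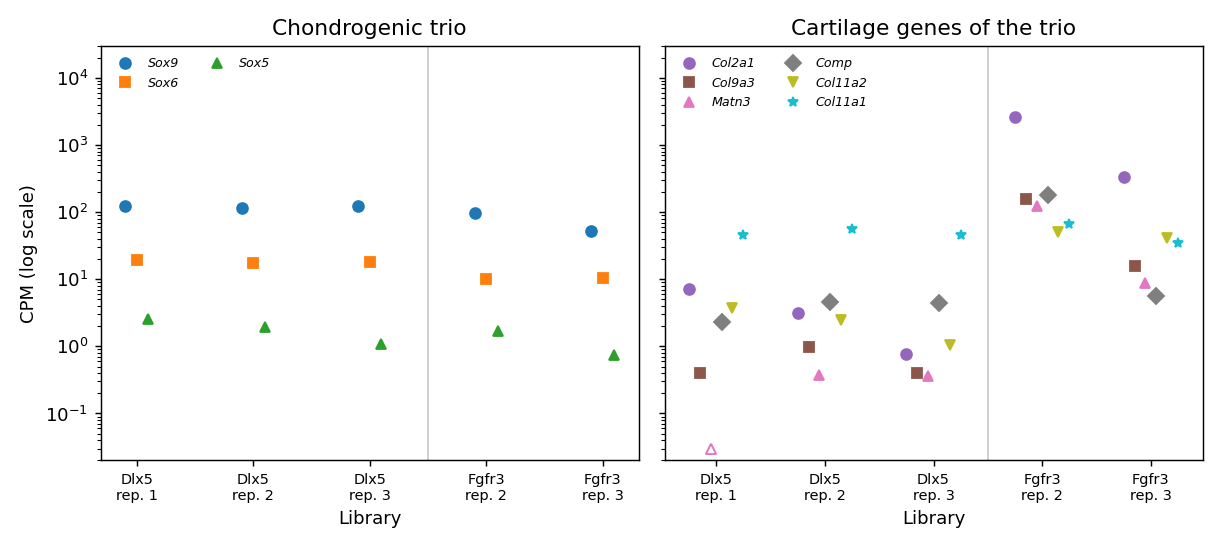
CPM of the trio (left) and of 6 cartilage genes of the list (right) in each library, on a shared log axis. Sox9 spans 53.2 to 125 CPM over the 5 libraries whereas Col2a1 spans 0.761 to 2577 CPM, and the open symbol at the foot is Matn3 in Dlx5 replicate 1, which had 0 counts.

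Of 14 genes listed as acting with *Sox9* or on it, 13 were tested and 8 were not called. Called were 2 higher in the Fgfr3 libraries and 3 higher in the Dlx5 libraries (median log2 fold change -0.14), beside the 16.6% and 12.9% of all genes. The coactivator *Crebbp* had 201 to 225 CPM in the Dlx5 libraries and 61.4 and 39.0 CPM in the Fgfr3 libraries (log2 fold change -2.10 ± 0.22, SE). *Arid5b*, a chromatin partner of *Sox9*, had 72.4 to 98.0 CPM against 28.4 and 18.3 (-1.88 ± 0.24), and *Smad3* had 32.5 to 43.1 CPM against 18.3 and 10.6 (-1.36 ± 0.27). On the other side, *Ctnnb1*, whose protein beta-catenin opposes *Sox9*, had 130 to 173 CPM against 470 and 329 (1.41 ± 0.20). *Nkx3-2*, a repressor that works with *Sox9* in early cartilage, had 1 to 4 counts in the Dlx5 libraries and 130 and 180 counts in the Fgfr3 libraries, and passed the filter only through the latter. The 5 genes listed as targets of SoxC factors gave no call. Of the 3 tested, *Tead2*, *Wnt5a* and *Gdf5*, the quasi-likelihood test, the exact test and DESeq2 called 0 of 3, and 0 had an unadjusted p under 0.05.

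Of 12 further Sox genes, 7 were listed and 4 were tested. *Sox13*, the third SoxD gene, was called higher in the Fgfr3 libraries, with 2.04, 4.21 and 3.08 CPM against 6.69 and 13.5 CPM (log2 fold change 1.70 ± 0.43, SE, edgeR's quasi-likelihood adjusted p = 0.0177). The call was lost without Fgfr3 replicate 3 (adjusted p = 0.141) and after removal of the GC trend (0.0542). *Sox7*, *Sox17* and *Sox18*, the SoxF genes of endothelium, were not called by the quasi-likelihood test, and no gene of the 12 was called higher in the Dlx5 libraries. The exact test called 2 of the 4 higher in the Fgfr3 libraries, and DESeq2 called 1. *Sox18* had 2 to 12 counts in the Dlx5 libraries against 60 and 80 (log2 fold change 2.04 ± 0.84, SE). It passed the filter only through the Fgfr3 libraries. *Sox10*, which defines Schwann cells and other glia, had 0 or 1 count in the Dlx5 libraries and 10 and 0 counts in the Fgfr3 libraries.

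Several marker lists moved with the lineage, beside 16.6% of all genes called higher in the Fgfr3 libraries and 12.9% higher in the Dlx5 libraries. Of 9 CAR cell markers, 7 were called higher in the Dlx5 libraries, *Kitl* (log2 fold change -2.82), *Il7* (-2.24) and *Vcam1* (-2.06) among them, and *Foxc1* was called higher in the Fgfr3 libraries (2.80). The summed level of the 9 markers was 32769 to 34379 CPM in the Dlx5 libraries and 12463 and 8069 CPM in the Fgfr3 libraries. *Cxcl12*, whose GFP allele was used for the sort, made up most of that sum in every library. All 10 pan-leukocyte markers were called higher in the Fgfr3 libraries, at 361 to 454 CPM in sum against 1165 and 2400 CPM. *Ptprc*, the antigen CD45 of nucleated blood cells, had 36.2 ± 9.47 CPM (SD, n = 3) in the Dlx5 libraries and 64.4 and 112 CPM in the Fgfr3 libraries. All 10 neutrophil markers were likewise called, at 2458 to 3059 CPM against 6830 and 16755. *Ly6g* (3.62), *Ltf* (2.90) and *Mmp8* (2.80) showed the largest log2 fold changes of that list. With any 1 Dlx5 library left out, 9 neutrophil markers and all 10 pan-leukocyte markers were called higher in the Fgfr3 libraries. Both lists lost calls without Fgfr3 replicate 3. Of 10 B lineage markers 5 were called higher in the Fgfr3 libraries, at 103 to 262 CPM against 274 and 485 CPM, and with 1 library left out the count ran from 1 (without Fgfr3 replicate 3) and 3 (without Dlx5 replicate 2) to 8 (without Dlx5 replicate 1). Between the Fgfr3 libraries, *Sox4* and *Sox12* were 1.26 and 1.17 times as high in replicate 2 as in replicate 3. Most cartilage genes were also higher in replicate 2. *Sox13* and the leukocyte and B lineage sums were higher in replicate 3. The part of these markers in the higher *Sox4*, *Sox12* and *Sox13* was not tested.

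The remaining lists showed fewer calls. Over all genes tested, 12.9% were called higher in the Dlx5 libraries and 16.6% higher in the Fgfr3 libraries. Counts of 1 or 2 in a list are near these shares. Of 10 erythroid markers 2 were called higher in the Dlx5 libraries and 0 higher in the Fgfr3 libraries (1 or 2, and 0 or 1, with 1 library left out), and their sum was 17921 to 36592 CPM against 13821 and 20541. Both, *Hbb-bt* and *Hba-a1*, are globin genes with near-identical copies, between which reads can be split, and *Hbb-bs* had 9732 ± 3467 CPM (SD, n = 3) against 4534 and 7207. By the exact test and DESeq2 the erythroid count higher in the Fgfr3 libraries was also 0, with 2 at an unadjusted p under 0.05. Of 10 endothelial markers 1, *Cdh5*, was called higher in the Dlx5 libraries, a call lost without Dlx5 replicate 1 or 2, without either Fgfr3 library and with libraries scaled by their totals alone. Their sum was 21.1 to 42.8 CPM against 31.9 and 44.9. *Pecam1* had 8.91 ± 3.36 CPM (SD, n = 3) against 15.0 and 18.8 CPM and was not called. Of 10 Schwann and glial markers 5 were tested and 1, *Mbp*, was called higher in the Fgfr3 libraries, a call lost without Dlx5 replicate 2 or 3 or Fgfr3 replicate 3. Their sum, 281 to 301 CPM against 192 and 182, was mostly *Ncam1*, a gene that many other cells express. The exact test and DESeq2 each called 1 Schwann or glial marker higher in the Fgfr3 libraries and 1 higher in the Dlx5 libraries.

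**Figure D4:**
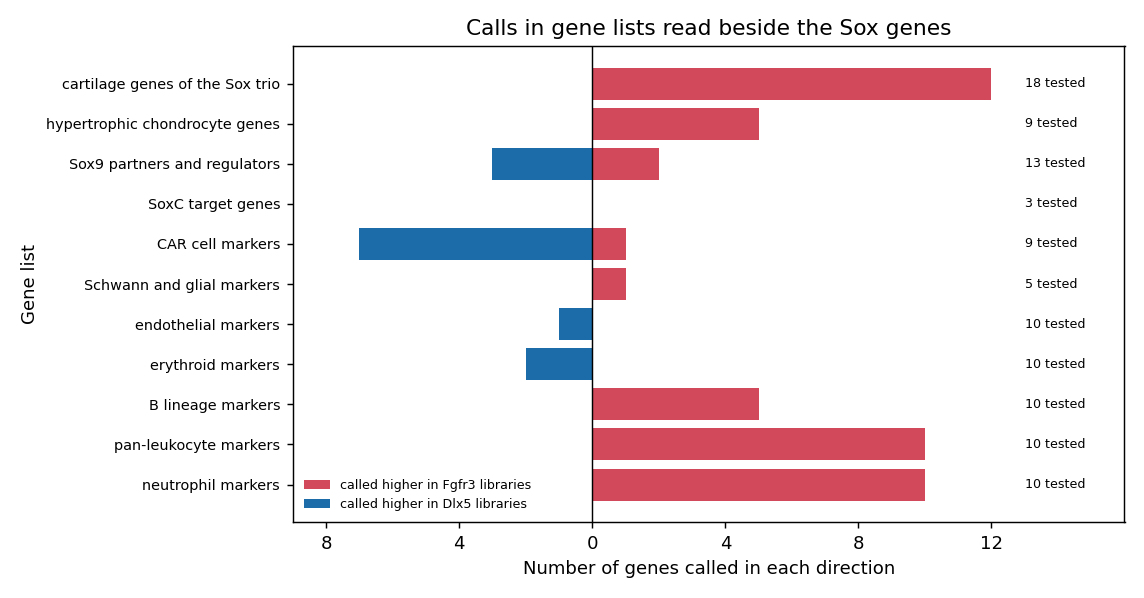
Number of genes of each list called higher in the Fgfr3 libraries (red, to the right) and higher in the Dlx5 libraries (blue, to the left), with the number tested at the right. Among the lists, 12 of 18 cartilage genes and 10 of 10 leukocyte markers lie on the Fgfr3 side, and 7 of 9 CAR cell markers lie on the Dlx5 side. Of the 12 cartilage genes, 8 passed the filter only through the Fgfr3 libraries, which fixed their side. Over all genes tested, 16.6% were called on the Fgfr3 side and 12.9% on the Dlx5 side.

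The genes whose pattern over the 5 libraries came closest to each Sox gene were taken by the root mean square difference of centred log2 CPM, among 13235 genes. For *Sox9* these were *Pggt1b* (0.0328), *Ecpas* (0.0415) and *Hnrnph1* (0.0474), and for *Sox6* they were *Gm12166* (0.0209), *Ubl7* (0.0297) and *Ptrhd1* (0.0336). *Sox4* was followed by *Fam149a* (0.0456), *Ctnnbip1* (0.0465) and *Nab1* (0.0561). For *Sox12* the closest were *Abhd13* (0.0829), *Snx25* (0.111) and *Chn1* (0.114). Among the low-count genes these were *Zfp65* (0.0419), *Hist1h1d* (0.166) and *Calml4* (0.185) for *Sox5*, and *Uck2* (0.0717), *Prkrip1* (0.0969) and *Pdcd2l* (0.103) for *Sox8*. With 5 libraries in 2 groups, many genes share any such pattern.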

How the data were processed

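The counts deposited by the authors are whole reads per gene, not normalized, from SMART-Seq and Nextera XT libraries. According to the labels' processing notes and the study's methods, they were made with TopHat2 2.0.13 and Bowtie2 2.2.1 on mm10. HTSeq is among the tools named, and its mode and strand setting are not given in the sources used here. The size-factor scaled and rlog tables were not used.

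The members and the gene lists were chosen with earlier results of these data known. Groups came from the labels, and gene names from GENCODE M21 on GRCm38, which held 29996 gene identifiers of the counts and lacked 45. The test covered 13235 of 17115 protein-coding genes and 5 reporter sequences, those reaching 1 CPM in 2 or more libraries, in edgeR 4.0.16 (R 4.3.3) with TMM scaling and the quasi-likelihood test of lineage without covariates. Benjamini-Hochberg adjustment ran over all of them. A call needed an adjusted p under 0.05 and a log2 fold change beyond 1 in size. SEs came from the F statistic, and 95% intervals from the SE and the degrees of freedom of the fit. The study's filter of 10 CPM and its exact test were alternatives, because the lower filter keeps Sox5 and Sox8.

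The text names the 7 genes, leading called genes of each list (at most 4 a direction), a fixed set of markers and, for each tested member, the 3 genes nearest in pattern. Values of some markers are not reported here. The fit was tested on simulated data. No 2 libraries agreed within sampling noise. Low genes have a floor of 3 counts, which covers counting error only, since reads had no molecular identifiers. Alternatives were other scalings, filters, tests (DESeq2 1.42.0 among them) and feature sets, removal of GC and length trends, the replicate number as a block, and each library left out.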

Additional observations from a re-analysis of the deposited data

How the results depend on the processing

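Of the 6 tested Sox genes, Sox12 was called under all 17 alternatives, and Sox5 and Sox8 under none of their 16. With the stricter filter of 10 CPM, Sox5 and Sox8 were not tested. No member's log2 fold change turned its direction under any alternative. Sox4 was called with libraries scaled by their totals alone, at 1.02. Without the fold threshold Sox4 (0.79) and Sox6 (-0.82) were called, and 2758 genes were called higher in the Dlx5 libraries, against 3761 with all features. With 1 library left out at a time, the log2 fold change ranged from -1.17 to -0.32 for Sox9, from 0.64 to 0.97 for Sox4, from -0.86 to -0.76 for Sox6, from 2.24 to 2.70 for Sox12, from -1.31 to -0.10 for Sox5 and from -0.49 to -0.07 for Sox8, and genes called ranged from 1523 to 2285 on the Fgfr3 side and from 1311 to 1910 on the Dlx5 side. Fits without an Fgfr3 library assume that the lone one varies like the others. Sox9 passed an adjusted p of 0.05 in 6 of 17 alternatives, with edgeR's exact test (0.0233) and DESeq2 (0.0191) among them, and the fold threshold in 1. The number of called cartilage genes was 4 with the filter of 10 CPM, which fewer of them passed.

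Levels per kilobase with the longest transcript were 0.257 (Dlx5 libraries) and 0.169 (Fgfr3 libraries) for Sox5, and 2.11 and 1.19 for Sox6, since their merged exons are far longer than any 1 transcript. With libraries scaled by totals alone, Sox6 stood at 1.16 and 0.768 and Sox9 at 27.6 in the Dlx5 libraries. The replicate numbers 2 and 3, shared by the groups, mark different pools, and deviations of equally numbered libraries had correlations of 0.0401 and -0.0474. With only 2 Fgfr3 libraries, their deviations mirror each other. The 2 correlations are thus not independent and cannot show that pairing is absent. With the replicate block, 2220 and 1773 genes were called, Sox12 stood at 2.24 and called, and no member's call changed, though the adjusted p of Sox4 rose to 0.0552, while Sox13 was not called (adjusted p = 0.0535). With the block and the GC trend removed together, Sox12 stood at 1.73. Depth limits Sox5, Sox8 and Sox11.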

Other observations

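Genes of hypertrophic chondrocytes and of the bone-forming cells that follow them differed beside the Sox genes. Of 11 listed, 9 were tested and 5 were called higher in the Fgfr3 libraries by edgeR's quasi-likelihood test (median log2 fold change 1.01 over the 9). Over all genes tested this share was 16.6%, and the count of 5 fell to 4 without Dlx5 replicate 1 or 3. The count also fell without Fgfr3 replicate 2. *Vegfa*, the growth factor that draws vessels into cartilage, had 4.43, 8.51 and 12.6 CPM in the Dlx5 libraries and 578 and 428 CPM in the Fgfr3 libraries. *Spp1* (log2 fold change 2.59 ± 0.26, SE), *Mmp13* (1.96 ± 0.24), *Alpl* (1.59 ± 0.19) and *Sp7* (1.01 ± 0.20) were the other genes called, *Sp7* only just past the fold threshold. *Col10a1*, the collagen that defines hypertrophic chondrocytes, had 0 counts in all Dlx5 libraries and 1350 and 14 counts in Fgfr3 replicates 2 and 3, so that it failed the filter. *Runx2*, a driver of the osteoblast lineage, had 179 ± 38.0 CPM (SD, n = 3) in the Dlx5 libraries and 128 and 93.7 CPM in the Fgfr3 libraries. It went the other way, with both Fgfr3 libraries below all Dlx5 libraries and a log2 fold change of -0.69. Its edgeR quasi-likelihood adjusted p was 0.0477, and it was not called because of the fold threshold.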
